A study of Mus musculus with 8 samples.

Results

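Fibroblasts of the synovium, the membrane that lines joints, were compared between arthritic mice given an antibody against IL-17A and arthritic mice given no inhibitor. The comparison used every cell that the deposited annotation places in one of 5 fibroblast classes (lining, Mmp3+, Il6+, Cd200+ and Pi16+) and that carried the hashtag of an arthritic animal of the IL-17-inhibited library or of the untreated library taken without FAP and Pdpn enrichment. These were 9830 cells, 5087 from 3 IL-17-inhibited animals and 4743 from 3 untreated animals, of 21731 annotated fibroblasts and 24227 annotated cells in the series. All 6 animals carried the human TNF transgene hTNFtg197 (strain B6-Tg(TNF)197Gkl), were 8 to 10 weeks old and had received Il23mc for 9 days. The IL-17-inhibited animals had in addition received the antibody anti-mIL-17a, whose dose and timing are not given in the sources used here. Each library also held 1 healthy wild-type animal without any treatment, with 413 fibroblasts in the IL-17-inhibited library and 749 in the untreated library. The cells were viable CD45-negative cells of ankle and wrist joints, and each animal's cells were marked by a hashtag antibody before the animals of a library were pooled. Treatment and library are therefore the same split of the arthritic animals and cannot be told apart in them. The healthy animals received no antibody, so for some genes their values are given beside those of the arthritic animals. For other named genes the text gives no healthy level over all fibroblasts. Among these are Mmp3, Steap4, Il1r1, Lbp, Adamts5, Adamts9, Cxcl13, Cxcl14, Cd74, Cxcl9, Epas1, Lox and Vcam1. Their calls in the arthritic animals do not separate treatment from library.

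As background, IL-17A is a cytokine made mainly by T cells and innate-like lymphocytes that acts on stromal cells through a receptor of the chains IL-17RA and IL-17RC and the adaptor Act1 (gene Traf3ip2). In fibroblasts it activates NF-kappaB, raises the transcriptional cofactor IkappaB-zeta (Nfkbiz) and C/EBP factors, and stabilises short-lived transcripts, often together with TNF. Its known targets include the iron-sequestering protein lipocalin-2 (Lcn2), serum amyloid A proteins, neutrophil chemokines, IL-6 and matrix metalloproteinases. The human TNF of the hTNFtg197 mice, a background model of TNF-driven arthritis in which synovial fibroblasts are main responders, was present in both arthritic groups.

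UMI counts (unique molecular identifiers, 1 per captured transcript) were summed over the fibroblasts of each animal, and levels are given as CPM, in which each animal's counts are scaled to the same total with TMM-adjusted library sizes. The sums held 21928368, 31405435 and 36786390 UMIs in the IL-17-inhibited animals 1, 2 and 3, against 12952645, 33132051 and 32817367 in the untreated animals, and 4508588 and 7307067 in the healthy animals of the IL-17-inhibited and the untreated library. Each arthritic group held 1 animal whose cells mostly carried Y-linked UMIs, IL-17-inhibited animal 1 (75.5% of cells) and untreated animal 2 (57.8%). Among cells of the healthy animal of the IL-17-inhibited library, the animal's own hashtag had the highest raw count in 9.93%, and 17.7% had a Y-linked UMI while 67.3% had Xist only. In the healthy animal of the untreated library these shares were 34.8%, 2.94% and 88.8%. After a centred log ratio the own hashtag was highest in 100% of cells of both. Whether cells of other animals are among those assigned to the healthy animals was not settled, which limits every healthy and library-term value below. The libraries shared 44 barcodes, 12 of them annotated in both. All 9 fibroblast identity genes (among them Col1a1, Pdgfra and Pdpn) were measured, and they summed to 22059 to 23497 CPM in IL-17-inhibited and 27917 to 28750 CPM in untreated animals. In the edgeR test given below, 8 of the 9 had a negative log2 fold change and 3 were called lower (median -0.27). The healthy animals had 29356 CPM in the IL-17-inhibited and 26429 CPM in the untreated library.

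Across all fibroblasts, IL-17-inhibited animals had less RNA of several acute-phase and matrix protease genes and more RNA of antigen-presentation genes than untreated animals. edgeR's quasi-likelihood test with Benjamini-Hochberg adjustment called 1212 of 14348 genes at an adjusted p under 0.05, which is 8.45% of the genes tested. Of these, 545 were higher (3.8% of those tested) and 667 lower (4.65%) in IL-17-inhibited animals, and the median log2 fold change of all genes was 0.01. The 3 IL-17-inhibited animals lay all above or all below the 3 untreated ones in 35.9% of genes tested. Summed over a whole population, fewer cells of a kind and less RNA per cell cannot be told apart, and the classes are compared further on. Log2 fold changes are IL-17-inhibited over untreated with their standard errors, every adjusted p of a gene is from this test, and coordinates are of mouse build mm10.

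**Figure D1:**
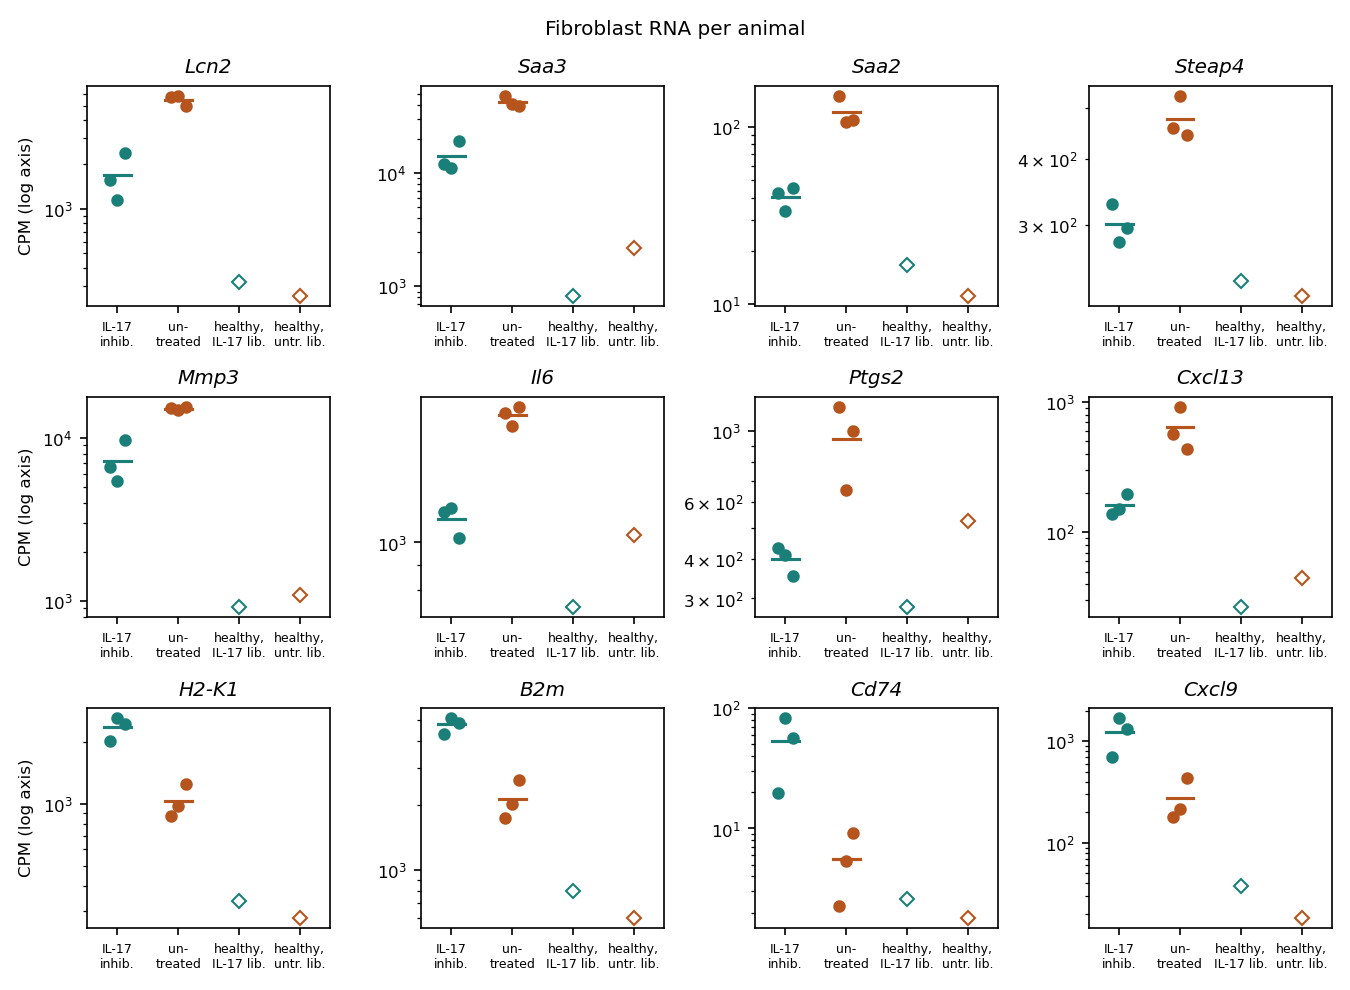
Levels of 12 genes in CPM (y axis, logarithmic) in the summed fibroblasts of each animal, with 1 filled point per IL-17-inhibited or untreated arthritic animal, a bar at each group mean, and open diamonds for the healthy animal of the IL-17-inhibited library (IL-17 lib.) and of the untreated library (untr. lib.). In the upper 2 rows all IL-17-inhibited animals lie below all untreated animals, and in the lowest row all lie above them.

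The IL-17 receptor chains and most of the signalling genes did not pass the test. Il17ra, the receptor chain shared by several IL-17 family cytokines, had 85.6, 86.1 and 77.5 CPM in IL-17-inhibited animals, against 93.6, 101 and 83.8 CPM in untreated animals (-0.16 ± 0.12, adjusted p = 0.435). Il17rc, its partner for IL-17A, had a log2 fold change of 0.21 ± 0.09 (adjusted p = 0.165), and the adaptor gene Traf3ip2 one of -0.23 ± 0.11 (0.219). Il17rb and Il17re, receptors for other family members, had 13 and 9 UMIs in the IL-17-inhibited animals together and 9 and 8 in the untreated animals, too few to be tested. Of the 24 genes on the list of receptors and signalling, 22 were tested, 2 fell and none rose, with a median log2 fold change of -0.06 beside 0.01 for all genes.

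The 2 genes of this list that fell are themselves known responders to the pathway. Nfkbiz, the cofactor that IL-17 is known to induce, had 322, 303 and 287 CPM in IL-17-inhibited animals and 380.1, 375 and 396 CPM in untreated animals (-0.34 ± 0.09, adjusted p = 0.0371). Zc3h12a, which encodes the RNA-degrading enzyme Regnase-1, had 89.4, 86.3 and 81.1 CPM in IL-17-inhibited animals and 104, 109 and 115 CPM in untreated animals (-0.35 ± 0.09, adjusted p = 0.0311). The groups did not overlap for either gene, but both changes were small. Nfkbiz lost its call when any 1 of the 6 animals was left out (adjusted p up to 0.131) and Zc3h12a without IL-17-inhibited animals 2 or 3 or untreated animals 1, 2 or 3 (adjusted p up to 0.117). The C/EBP genes Cebpb and Cebpd had values of 0.09 and -0.05 (adjusted p = 0.626 and 0.883).

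Of 30 genes on the list of IL-17 targets, 10 fell and 2 rose, and 22 had a negative value, with a median of -0.17. Lcn2 (chromosome 2, 32384633 to 32388252) had 1554, 1155 and 2367 CPM in the IL-17-inhibited animals, against 5685, 5798 and 4949.9 CPM in the untreated animals. The highest IL-17-inhibited animal lay far below the lowest untreated animal, and the log2 fold change was -1.70 ± 0.26 (adjusted p = 0.00426). The healthy animals of the IL-17-inhibited and the untreated library had 319 and 255 CPM, so both arthritic groups lay above them. Saa3 (chromosome 7, 46711998 to 46715700), an amyloid protein that mouse fibroblasts make in inflammation, had 12107, 11052 and 19305 CPM in IL-17-inhibited animals and 47951, 40597 and 39373 CPM in untreated animals. The groups were again apart, by -1.59 ± 0.36 (adjusted p = 0.0226). Its healthy values of 818 and 2168 CPM in the IL-17-inhibited and the untreated library differed in the same direction, and with a library term in the fit the change was -0.18, compared with -2.02 for Lcn2. Without 1 animal, Lcn2 passed in all 6 fits, while Saa3 lost its call without IL-17-inhibited animals 1 or 2 or untreated animals 1, 2 or 3 (adjusted p up to 0.089).

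Other targets with a fall encode a protease, cytokine signals and enzymes. Mmp3 (chromosome 9, 7445822 to 7455975), the protease stromelysin-1, had 6648, 5436 and 9669 CPM in the IL-17-inhibited animals, against 15211, 14829.6 and 15507 CPM in the untreated animals. The 3 untreated animals were close to each other, all IL-17-inhibited animals lay below them, and the change was -1.07 ± 0.19 (adjusted p = 0.00732). Steap4, a metalloreductase gene known as an IL-17 target, had 329, 278 and 296 CPM in IL-17-inhibited and 458, 526 and 444 CPM in untreated animals (-0.66 ± 0.10, adjusted p = 0.00307). Il1r1, the signalling IL-1 receptor, had 158, 175 and 173 CPM in IL-17-inhibited and 289, 245 and 246 CPM in untreated animals (-0.63 ± 0.10, adjusted p = 0.00476). Neither of these genes overlapped between the groups, and Mmp3, Steap4 and Il1r1 passed in all 6 fits that left out 1 animal.

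Il6, the cytokine gene that names one of the classes, had 1153, 1177 and 1019.9 CPM in the IL-17-inhibited animals, against 1842, 1728 and 1890.4 CPM in the untreated animals (-0.70 ± 0.16, adjusted p = 0.0197). Ptgs2, the inducible prostaglandin synthase COX-2, had 430.4, 411 and 353 CPM in IL-17-inhibited animals and 1191, 656 and 1001 CPM in untreated animals (-1.25 ± 0.30, adjusted p = 0.0247). Both were lower in every IL-17-inhibited animal, but healthy animals differed in the same direction, with 737 and 1037 CPM for Il6 and 282 and 524 CPM for Ptgs2 in the IL-17-inhibited and the untreated library. Il6 lost its call without IL-17-inhibited animals 2 or 3 or untreated animals 1, 2 or 3 (adjusted p up to 0.0687), and Ptgs2 without IL-17-inhibited animals 2 or 3 or untreated animals 1 or 3 (adjusted p up to 0.096). S100a8, a calprotectin subunit that neutrophils hold in large amounts, fell by 0.85 to 6.09, 7.73 and 7.54 CPM in IL-17-inhibited animals, against 13.7, 13.1 and 12.1 CPM in untreated animals (adjusted p = 0.00863). The 7 neutrophil markers, S100a8 among them, summed to 25.7 to 31.1 CPM in IL-17-inhibited and 45.7 to 57.3 CPM in untreated animals, and 2 of the 3 that were tested fell. The part of neutrophil RNA in the S100a8 result was not tested.

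The 2 targets that rose were low in all animals. Csf2, the growth factor GM-CSF, had 15.5, 14.4 and 13.4 CPM in IL-17-inhibited animals and 6.39, 4.42 and 3.91 CPM in untreated animals (1.60 ± 0.42, adjusted p = 0.037), and the healthy animals had 12.7 and 1.43 CPM in the IL-17-inhibited and the untreated library. The ratio between the healthy animals was larger than that between the arthritic groups, a library term gave -1.54, and the call was lost when any 1 of the 6 animals was left out (adjusted p up to 0.137). Mmp9, a gelatinase gene, had 3.18, 3.67 and 3 CPM in IL-17-inhibited animals and 0.567, 1.55 and 1.88 CPM in untreated animals (1.20 ± 0.30, adjusted p = 0.0277), had -0.50 with a library term, and lost its call without IL-17-inhibited animals 1, 2 or 3 or untreated animals 1 or 2 (adjusted p up to 0.0959).

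The neutrophil chemokines, which are classic IL-17 targets, did not pass. Cxcl1 had 5896, 6225 and 5762 CPM in the IL-17-inhibited animals, against 7817, 5938 and 6192 CPM in the untreated animals (-0.16 ± 0.15, adjusted p = 0.558). The groups overlapped, as they did for Cxcl2 (-0.12 ± 0.26) and Cxcl5 (-0.04 ± 0.26). Csf3, the neutrophil growth factor G-CSF, had 62.5, 29.3 and 49.7 CPM in IL-17-inhibited animals and 119, 121 and 78.5 CPM in untreated animals (-1.17 ± 0.37, adjusted p = 0.0747). Its groups did not overlap, but its healthy values of 3.62 and 15.4 CPM in the IL-17-inhibited and the untreated library differed in the same direction, and a library term gave 0.92. Lif, an IL-6 family cytokine, had -0.75 ± 0.26 (adjusted p = 0.0986), the monocyte attractants Ccl2 and Ccl7 0.56 ± 0.25 and -0.04 ± 0.20 (adjusted p = 0.187 and 0.939), and the collagenase gene Mmp13 0.25 ± 0.23 (adjusted p = 0.532).

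Of 14 acute-phase and antimicrobial genes tested, 7 fell and none rose, 3 had a positive value, and the median was -0.65. With a library term the median was -0.04, and it was -0.13 over the 10 members with at least 20 healthy UMIs. Besides Lcn2, Saa3 and Steap4, these were Saa2, Orm1, Orm2 and Lbp. Saa2, a serum amyloid gene, had 42.5, 33.5 and 45.4 CPM in IL-17-inhibited animals and 149, 107 and 109 CPM in untreated animals (-1.58 ± 0.24, adjusted p = 0.00394). Its neighbour Saa1 had 174, 128 and 222 CPM in IL-17-inhibited animals and 383, 349 and 336 CPM in untreated animals (-1.03 ± 0.49, adjusted p = 0.217). Both were lower in every IL-17-inhibited animal, but Saa1 and Saa2 are near-identical, so reads may have been split between them, and Saa1 had 0.30 and Saa2 -2.17 with a library term. Orm1, which encodes an acid glycoprotein of plasma, had 11, 8.26 and 11.2 CPM in IL-17-inhibited and 27.8, 25 and 29 CPM in untreated animals (-1.43 ± 0.23, adjusted p = 0.00426), and its copy Orm2, with the same uncertainty, had -1.83 ± 0.30 (0.005). With few healthy UMIs, a library term gave 0.39 for Orm1. Lbp, the lipopolysaccharide-binding protein, had 804, 585 and 755 CPM in IL-17-inhibited animals and 1112, 1128 and 1090.4 CPM in untreated animals (-0.64 ± 0.12, adjusted p = 0.00863). Haptoglobin (Hp) had 5797, 3912 and 3491 CPM in IL-17-inhibited and 4508, 6226 and 4404 CPM in untreated animals, which overlapped (-0.20 ± 0.34, adjusted p = 0.768). The falls of Saa2, Orm1, Orm2 and Lbp passed in all 6 fits that left out 1 animal. Of the 5 genes that fell and had at least 20 UMIs in the healthy animals together, 1, Saa3, had the same sign between the healthy animals. Of the 11 called IL-17 targets with as many healthy UMIs, 8 had the same sign.

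**Figure D2:**
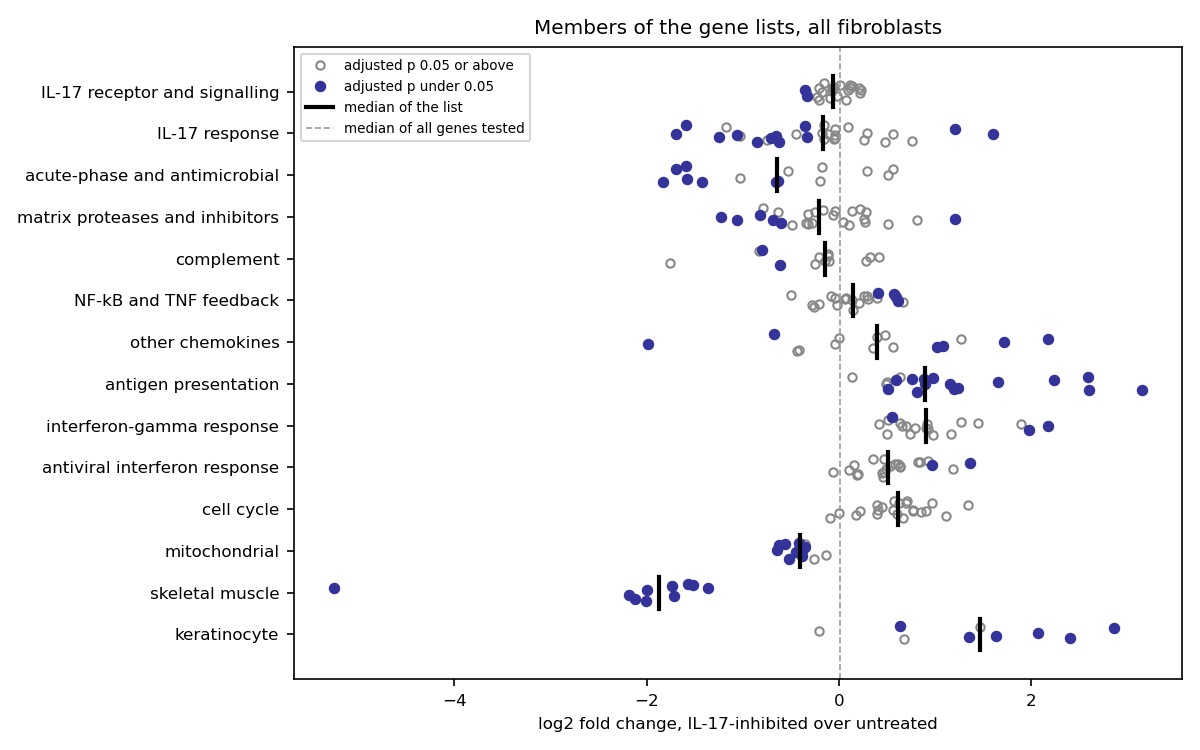
Log2 fold change of IL-17-inhibited over untreated animals (x axis) for the tested members of 14 gene lists, with 1 point per gene, filled where the adjusted p was under 0.05, a bar at the list's median and a dashed line at the median of all genes tested. Members of the acute-phase list reach down to -1.83, all 19 antigen-presentation genes lie above 0, and the muscle and keratinocyte lists, markers of other cells, lie far from 0 as well.

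Among matrix proteases and their inhibitors, 5 of 26 fell and 1 rose, with a median of -0.21. The 5 called members with at least 20 healthy UMIs all had the same sign between the healthy animals. Over the 24 members with as many healthy UMIs the median was -0.21, and -0.08 with a library term. Apart from Mmp3, the falls were in the ADAMTS family, secreted proteases of which Adamts5 is the best-known aggrecan-cleaving enzyme of mouse cartilage. Adamts5 had 403, 325 and 316 CPM in IL-17-inhibited animals and 588, 533 and 556 CPM in untreated animals (-0.68 ± 0.13, adjusted p = 0.0092). Adamts9 had 12.1, 16.1 and 13.9 CPM in IL-17-inhibited animals and 36.6, 24.8 and 37.6 CPM in untreated animals (-1.23 ± 0.21, adjusted p = 0.00636). Neither overlapped between the groups, and Adamts12 and Adamts15, both at no more than 21.2 CPM in the arthritic animals, fell by 0.82 and 0.60 (adjusted p = 0.0137 and 0.0317). The other aggrecanase, Adamts4, had -0.64 ± 0.26 (adjusted p = 0.151), and the inhibitors Timp1 and Timp2 had 0.13 ± 0.18 and 0.28 ± 0.10. Adamts5 and Adamts9 passed without any 1 animal, Adamts12 lost its call without IL-17-inhibited animal 2 or untreated animal 2 (adjusted p up to 0.0595), and Adamts15 when any 1 of the 6 animals was left out (adjusted p up to 0.128).

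Tnfsf11 (chromosome 14, 78277445 to 78308043), which encodes RANKL, the signal that forms osteoclasts, had 109, 58.4 and 70.6 CPM in the IL-17-inhibited animals, against 152, 134 and 170.1 CPM in the untreated animals (-0.94 ± 0.22, adjusted p = 0.0228). All IL-17-inhibited animals were below the untreated ones, and both groups were above the healthy animals with 7.24 and 11.8 CPM in the IL-17-inhibited and the untreated library. These healthy values differed in the same direction as the arthritic groups, so the part of the library in the fall of Tnfsf11 is not separated. The call was lost without IL-17-inhibited animals 2 or 3 or untreated animals 1, 2 or 3 (adjusted p up to 0.089). Il34, a ligand of the same macrophage receptor as M-CSF, rose by 1.20 ± 0.26 to 23.9, 21.1 and 13.5 CPM in IL-17-inhibited animals, against 7.12, 7.85 and 10.1 CPM in untreated animals (adjusted p = 0.0182); it lost its call without IL-17-inhibited animals 1 or 2 or untreated animals 1 or 2 (adjusted p up to 0.0815). Of the 12 tested osteoclast and bone signal genes, 2 fell and 1 rose, with a median of -0.07.

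Among 13 complement genes 2 fell, and no member was called higher (median -0.15). Over the 12 members with at least 20 healthy UMIs the median was -0.13, and 0.11 with a library term. Of the 2 called members, 1 had the same sign between the healthy animals. Cfb, factor B, which drives the alternative pathway of complement, had 1206, 1162 and 1626 CPM in IL-17-inhibited animals and 1859, 2077 and 2181 CPM in untreated animals (-0.61 ± 0.14, adjusted p = 0.0197). Its level was lower in every IL-17-inhibited animal than in any untreated animal, and the call was lost without IL-17-inhibited animals 1 or 2 or untreated animals 2 or 3 (adjusted p up to 0.0821).

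Antigen presentation moved the other way. Of its 19 genes, 15 rose and none fell, all 19 had a positive value and the median was 0.89, against 0.01 for all genes. With a library term the median was 0.69, and 13 of the 14 called members with at least 20 healthy UMIs had the same sign between the healthy animals. H2-K1 (chromosome 17, 33996017 to 34000347), a classical class I heavy chain that shows peptides to CD8 T cells, had 2016, 2615 and 2455 CPM in the IL-17-inhibited animals, against 874, 979.9 and 1244 CPM in the untreated animals. Each IL-17-inhibited animal lay above each untreated one, by 1.19 ± 0.14 (adjusted p = 0.0017). H2-D1 had 2991, 3545 and 3438 CPM in IL-17-inhibited and 1180.1, 1436 and 1609.6 CPM in untreated animals (1.24 ± 0.14, adjusted p = 0.0017), and B2m (chromosome 2, 122147686 to 122153083), the light chain of class I, had 4319, 5107 and 4865 CPM in IL-17-inhibited and 1754, 2037 and 2616 CPM in untreated animals (1.16 ± 0.15, adjusted p = 0.00205). H2-K1 and H2-D1 are near-identical and may share reads, whereas B2m has a sequence of its own. The healthy animals of the IL-17-inhibited and the untreated library had 336 and 277 CPM of H2-K1 and 796 and 595 CPM of B2m, a difference of the same sign but smaller. With a library term the values were 0.91 for H2-K1, 0.86 for H2-D1 and 0.74 for B2m, none of which passed in a fit whose treatment effect rests on 1 healthy animal per library.

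Other genes of the class I pathway rose as well, though not all of them passed. Psmb9, a peptide-cutting subunit of the immunoproteasome, had 78, 106 and 96.8 CPM in IL-17-inhibited and 42.2, 43.9 and 65 CPM in untreated animals (0.89 ± 0.15, adjusted p = 0.00613), its partners Psmb8 and Psmb10 rose by 0.81 ± 0.18 and 0.76 ± 0.17, and the loading factor Tapbp by 0.59 ± 0.13. The peptide transporter genes Tap1 and Tap2 had 0.63 ± 0.23 and 0.50 ± 0.15 and did not pass (adjusted p = 0.107 and 0.0641), and Erap1, a peptide trimmer, had 0.14 ± 0.092. Among the non-classical heavy chains, H2-Q4, H2-Q7 and H2-T23 rose by 0.98 ± 0.14, 1.65 ± 0.32 and 0.88 ± 0.20. The H2-Q genes are near-identical copies whose reads may have been split, and H2-Q7 had 21.1 and 5.97 CPM in the healthy animals of the IL-17-inhibited and the untreated library, with a library-term value of -0.17. Psmb9 and H2-Q4 passed without any 1 animal, H2-Q7 in 4 of 6 fits, and Tapbp, H2-T23, Psmb8 and Psmb10 in 2. H2-Q7 lost its call without untreated animals 1 or 2 (adjusted p up to 0.0587), and Tapbp, H2-T23, Psmb8 and Psmb10 lost theirs without IL-17-inhibited animals 2 or 3 or untreated animals 1 or 2 (adjusted p up to 0.0961). Psme2, a proteasome activator gene with 0.50 ± 0.14, lost it when any 1 of the 6 animals was left out (adjusted p up to 0.187).

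Class II genes had larger rises at low levels. Cd74, the invariant chain that accompanies class II molecules, had 19.7, 82.8 and 56 CPM in the IL-17-inhibited animals, against 2.27, 5.38 and 9.2 CPM in the untreated animals (3.15 ± 0.48, adjusted p = 0.00408). The lowest IL-17-inhibited animal still had more than the highest untreated animal. H2-Ab1, H2-Aa and H2-Eb1, the chains of the class II molecules, rose by 2.24 ± 0.38, 2.59 ± 0.46 and 2.59 ± 0.48 (adjusted p = 0.00613, 0.00732 and 0.00841). All 4 passed when any 1 animal was left out. Class II genes are typical of leukocytes, whose 13 markers summed to 12.8 to 15.5 CPM in IL-17-inhibited and 19.4 to 28.4 CPM in untreated animals. Of these markers 8 were tested, none passed, and Cd3e had no UMI in the 6 animals. The part of leukocyte RNA in the class II results was not tested.

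Interferon-gamma is the best-known inducer of both pathways, through the transcription factor Irf1 and the coactivator Ciita among others. Of 19 tested interferon-gamma response genes all had a positive value and 3 rose (median 0.91), and 7 did not overlap between the groups, a share close to the 35.9% of all genes tested. Cxcl9, a chemokine for activated T cells, had 704, 1702 and 1330.01 CPM in IL-17-inhibited animals and 178, 214 and 434 CPM in untreated animals (2.18 ± 0.53, adjusted p = 0.0306). The groups were apart although the animals within each differed by more than 2 times, and the call was lost without IL-17-inhibited animals 2 or 3 or untreated animals 1 or 2 (adjusted p up to 0.121). Socs1, a feedback inhibitor, rose by 0.55 ± 0.15 (0.0401), and the GTPase gene Tgtp1, which shares reads with Tgtp2, rose by 1.97 ± 0.56 (0.043) at no more than 4.53 CPM in any animal. Socs1 lost its call when any 1 of the 6 animals was left out (adjusted p up to 0.16) and Tgtp1 without IL-17-inhibited animals 2 or 3 or untreated animals 1, 2 or 3 (adjusted p up to 0.15). Irf1 had 111, 166 and 116 CPM in IL-17-inhibited and 60.8, 94.2 and 98.3 CPM in untreated animals (0.63 ± 0.23, adjusted p = 0.108), and Cxcl10 had 1.26 ± 0.40 (adjusted p = 0.0722). Of 22 antiviral interferon genes, 2 rose, Oas1a by 1.36 ± 0.36 and Xaf1 by 0.96 ± 0.27 (adjusted p = 0.0351 and 0.0423), and 21 had a positive value (median 0.51). Oas1a lost its call without IL-17-inhibited animals 2 or 3 or untreated animals 1, 2 or 3 (adjusted p up to 0.156) and Xaf1 without IL-17-inhibited animals 2 or 3 or untreated animals 1 or 2 (adjusted p up to 0.161), and between the healthy animals the median log2 ratio of the 19 with at least 20 UMIs was -0.38.

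The sequences just upstream of 5 of these genes are shown as examples, chosen because they hold motif matches. Promoters are the 250 bases before the RefSeq start (build GRCm38.p6), searched on both strands for a 10-letter kappaB motif, the NF-kappaB site, for the interferon-type motif TTTCNNTT and for the C/EBP-type motif TTNNGNAA. In the windows of 60 bases that follow, written 5′ to 3′ on the strand of the gene, capitals mark motif matches, and overlapping matches run together.
H2-K1, chr17:34000422-34000481, minus strand: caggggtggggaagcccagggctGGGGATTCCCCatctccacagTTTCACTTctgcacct
H2-D1, chr17:35262900-35262959, plus strand: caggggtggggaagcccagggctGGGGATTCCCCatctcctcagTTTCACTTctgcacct
B2m, chr2:122147537-122147596, plus strand: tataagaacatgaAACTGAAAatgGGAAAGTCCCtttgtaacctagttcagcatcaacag
Saa3, chr7:46715756-46715815, minus strand: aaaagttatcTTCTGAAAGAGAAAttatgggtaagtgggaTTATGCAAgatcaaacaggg
Steap4, chr5:7960222-7960281, plus strand: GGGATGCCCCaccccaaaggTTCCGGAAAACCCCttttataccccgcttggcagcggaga

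The H2-K1 and H2-D1 windows share 59 of 60 bases and carry a kappaB and an interferon-type match side by side, and B2m carries the same pair in the other order, its interferon-type match on the other strand. The Saa3 window has a C/EBP-type match, TTATGCAA, and a run in which a C/EBP-type match overlaps an interferon-type match on the other strand. The Steap4 window has a kappaB match and a run in which a C/EBP-type match overlaps another kappaB match. Promoters of other named genes lacked some or all of these letters. That of Psmb9, which rose, had no match of any of the motifs. Those of Cxcl9, which rose, and of Lcn2 and Cxcl13, which fell, had C/EBP-type matches only. The Mmp3 promoter had interferon-type and C/EBP-type matches but no kappaB match. Over the lists, kappaB matches stood in 7 of 23 IL-17 target, 2 of 12 acute-phase and 6 of 16 antigen-presentation promoters, and in 3.75% of all 27025 promoters. Interferon-type matches stood in 3 of 23, 1 of 12 and 7 of 16, in 13 of 15 interferon-gamma response promoters and in 21.6% of all promoters. C/EBP-type matches stood in 16 of 23, 10 of 12 and 4 of 16, in 9 of 15 interferon-gamma response promoters and in 36.9% of all, and kappaB matches in 3 of the same 15. The genes that fell and those that rose thus both include promoters with kappaB letters. A match of letters is a description and does not show that a factor bound there.

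Chemokines that draw lymphocytes and monocytes changed in both directions, 4 of 15 up and 2 down (median 0.40). With a library term the median was 0.10, and 5 of the 6 called members had the same sign between the healthy animals. Cxcl13 (chromosome 5, 95956951 to 95961068), the attractant of B cells and follicular helper T cells, had 139, 152 and 197 CPM in the IL-17-inhibited animals, against 572, 921 and 438 CPM in the untreated animals. The groups were far apart (-1.98 ± 0.28, adjusted p = 0.00263). Cxcl14, a chemokine of resting epithelia and stroma, had 1936, 1818 and 2582 CPM in IL-17-inhibited animals and 3502, 3391 and 3269 CPM in untreated animals (-0.68 ± 0.12, adjusted p = 0.00748). Besides Cxcl9, the chemokines that rose were Cx3cl1 (fractalkine), Ccl5 (RANTES) and Ccl8, by 1.02 ± 0.16, 1.71 ± 0.48 and 1.08 ± 0.30 (adjusted p = 0.00394, 0.0484 and 0.046). Ccl5 had 432, 450.04 and 394 CPM in IL-17-inhibited animals and 153, 47.2 and 190.3 CPM in untreated animals, and healthy values of 26.3 and 5.62 CPM in the IL-17-inhibited and the untreated library, so that a library term gave -0.52. Cxcl13, Cxcl14 and Cx3cl1 passed without any 1 animal, Ccl5 lost its call when any 1 of the 6 animals was left out (adjusted p up to 0.135), and Ccl8 without IL-17-inhibited animals 2 or 3 or untreated animals 1, 2 or 3 (adjusted p up to 0.178).

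The NF-kappaB pathway's own genes were not lower. Of 21 tested genes of the pathway and its TNF feedback, 4 rose and none fell (median 0.14). Vcam1, an adhesion molecule that holds leukocytes, had 669, 693 and 655 CPM in IL-17-inhibited and 468, 398 and 452 CPM in untreated animals (0.61 ± 0.13, adjusted p = 0.0166), and Traf1 and Bcl3 rose by 0.59 ± 0.16 and 0.41 ± 0.11 (0.0363 and 0.0364). Vcam1 lost its call without IL-17-inhibited animal 2 or untreated animal 2 (adjusted p up to 0.0788), Traf1 when any 1 of the 6 animals was left out (adjusted p up to 0.154) and Bcl3 without IL-17-inhibited animals 1 or 2 or untreated animals 1, 2 or 3 (adjusted p up to 0.143).

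Matrix genes changed one by one rather than as a list. Collagens and other fibrous proteins numbered 26, of which 2 passed upward and 1 downward (median 0.14). Col12a1, a collagen of the fibril surface, had 176, 246 and 221 CPM in IL-17-inhibited and 113, 119.8 and 137 CPM in untreated animals (0.80 ± 0.15, adjusted p = 0.00956), and fibronectin (Fn1) had 2767, 1763 and 1336 CPM in IL-17-inhibited and 1076, 1049.9 and 1111 CPM in untreated animals (0.86 ± 0.20, adjusted p = 0.0227). Neither overlapped, but Fn1 was high mainly in IL-17-inhibited animal 1 and lost its call without IL-17-inhibited animal 1 or untreated animals 1, 2 or 3 (adjusted p up to 0.0873). Col4a1 of basement membranes fell by 0.56 (adjusted p = 0.0239) and lost its call without IL-17-inhibited animals 2 or 3 or untreated animals 1, 2 or 3 (adjusted p up to 0.0997). Lox, the enzyme that cross-links collagen, fell to 519, 513 and 572 CPM in IL-17-inhibited animals, against 899, 957 and 855 CPM in untreated animals (-0.76 ± 0.10, adjusted p = 0.00205). Of 10 small leucine-rich proteoglycans, Aspn rose by 0.85 ± 0.14 and Lum and Dcn fell by 0.53 and 0.40 (adjusted p = 0.00613, 0.019 and 0.0231). Lum lost its call without IL-17-inhibited animals 2 or 3 or untreated animals 1 or 3 (adjusted p up to 0.0799) and Dcn when any 1 of the 6 animals was left out (adjusted p up to 0.102), and Aspn, Lox and Col12a1 passed in all 6 such fits.

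Of the genes with the largest changes, several belong to none of these groups. Epas1, the hypoxia factor HIF-2alpha, had 51.8, 36.1 and 39.9 CPM in IL-17-inhibited and 140.1, 143 and 128 CPM in untreated animals (-1.69 ± 0.21, adjusted p = 0.0017), and the oxygen sensor gene Egln3 rose by 1.60 ± 0.40 (0.0308), a call lost when any 1 of the 6 animals was left out (adjusted p up to 0.122). Sostdc1, a secreted inhibitor of Wnt and BMP signals, had 6.32, 4.07 and 9.54 CPM in IL-17-inhibited and 19.9, 31.5 and 28.8 CPM in untreated animals (-2.01 ± 0.28, adjusted p = 0.00263), and Lpl, lipoprotein lipase, fell by 1.63 (adjusted p = 0.00532). Neither gene overlapped between the groups, and Epas1, Sostdc1 and Lpl passed without any 1 animal. The largest rises included C1qtnf3, an adipokine-like secreted protein (1.65 ± 0.25), AA467197, known also as Nmes1 (1.72 ± 0.24), the class I gene H2-Q6 (1.86 ± 0.32) and Clic5, an actin-linked chloride channel family gene of the lining list (1.60 ± 0.41), which lost its call without IL-17-inhibited animals 1 or 2 or untreated animals 1, 2 or 3 (adjusted p up to 0.119). Osteocalcin (Bglap), which shares reads with Bglap2, rose by 2.11 ± 0.19 at no more than 22.4 CPM, while the bone markers summed to 139 to 218 CPM in IL-17-inhibited and 67.1 to 185 CPM in untreated animals; the part of bone cell RNA was not tested. Hist1h2ap, a replication histone with near-identical copies, was highest in IL-17-inhibited animal 1, with 65.9, 15.5 and 7.59 CPM in IL-17-inhibited and 2.99, 5.75 and 3.51 CPM in untreated animals (2.79 ± 0.60), and lost its call without untreated animals 1, 2 or 3 (adjusted p up to 0.0679). Of the 12 largest falls at the levels considered, the other 6, Ckm, Atp2a1, Tnnt3, Tnni2, Myl1 and Tnnc2, are genes of muscle fibres.

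Muscle and keratinocyte genes differed between the libraries in arthritic and healthy animals alike. All 10 skeletal muscle genes fell, with a median of -1.87, and summed to 73.5 to 121 CPM in IL-17-inhibited and 258 to 369 CPM in untreated animals. The healthy animals had 108 CPM in the IL-17-inhibited and 376 CPM in the untreated library, and their median log2 ratio was -1.83, so the muscle difference was as large without any antibody. Of 9 keratinocyte genes 6 rose (median 1.46), with sums of 103 to 142 CPM in IL-17-inhibited and 48.9 to 54.8 CPM in untreated animals and of 359 and 146 CPM in the healthy animals of the IL-17-inhibited and the untreated library. Of 13 mitochondrial genes 10 fell (median -0.41, healthy ratio -0.24). With a library term the muscle median was -0.02 and that of 8 keratinocyte genes -0.003. Markers of other cells varied in this. Medians over members with at least 20 healthy UMIs are given for arthritic, then healthy animals. They were 0.21 and -0.42 for mural, -0.85 and -0.14 for neutrophil and -0.53 and -0.02 for leukocyte genes. Cartilage genes had 0.30 and 2.46 (5, 3, 2 and 4 genes). Endothelial genes had -0.47 and -0.96 and bone genes 0.77 and 0.30 (6 and 5 genes). Erythroid markers summed to 0.136 to 0.473 CPM in IL-17-inhibited and 2.02 to 2.63 CPM in untreated animals. In the healthy animals they summed to 0 CPM in the IL-17-inhibited and 2.39 CPM in the untreated library.

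The healthy animals were then used as a check of the other genes. Of 8135 genes with at least 100 UMIs in the healthy animals, 98 (1.2%) differed by more than 2-fold between them, 32 higher and 66 lower in the IL-17-inhibited library. Of the 117 such genes that differed by more than 2-fold between the arthritic groups, 31 did so in the same direction in the healthy animals. Among 886 called genes, 672 (75.8%) had the same sign between the healthy animals, and over all 8135 genes the share was 63.5%. In the Il6+ class alone, which healthy animals also hold, 67 of 4149 genes differed by more than 2-fold between the healthy animals. The medians over list members with at least 20 healthy UMIs were -0.65 in arthritic and -0.14 in healthy animals for acute-phase genes (10 genes), 0.88 and 0.24 for antigen presentation (18 genes), and -0.26 and -0.19 for the IL-17 targets (28 genes). A library term left none of the 1212 calls, with 1107 genes at an unadjusted p under 0.05.

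**Figure D3:**
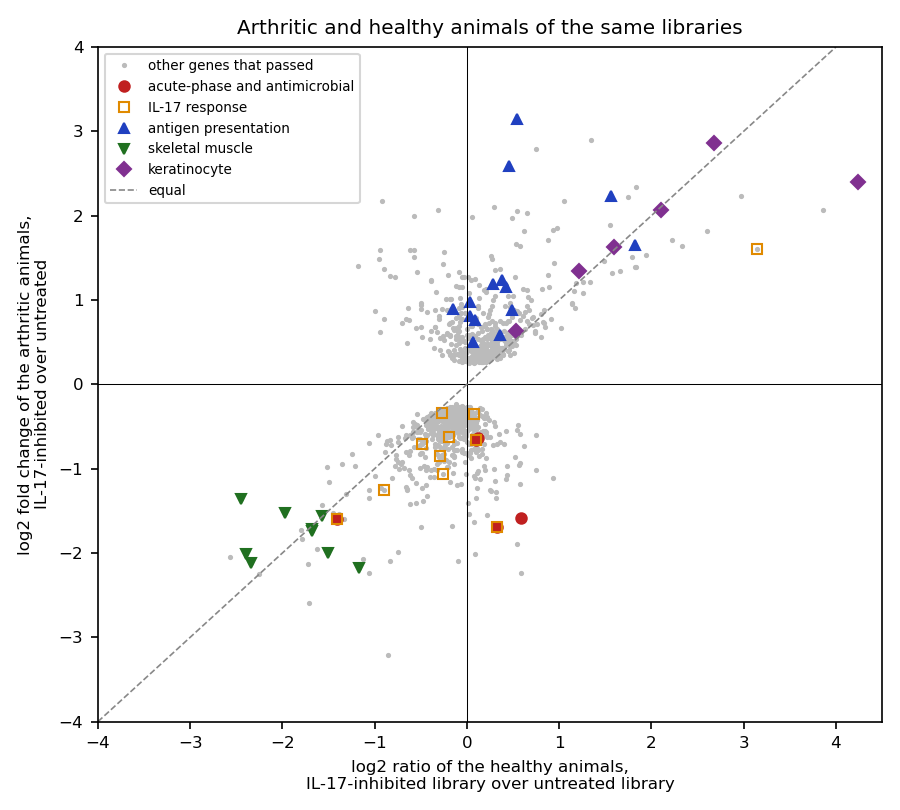
Log2 fold change between the arthritic groups (y axis) against the log2 ratio between the 1 healthy animal of each library (x axis), IL-17-inhibited over untreated in both, for 1091 genes that passed in the arthritic animals and had at least 20 healthy UMIs; 2 genes lie outside the axes. Muscle and keratinocyte genes lie near the dashed line of equal values, whereas Lcn2 and most antigen-presentation genes lie away from it.

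To ask whether the mix of fibroblast classes differed, the share of each class was compared between the animals. Cd200+ fibroblasts made up 13.2%, 15.9% and 14.2% of fibroblasts in the IL-17-inhibited animals, against 4.60%, 5.89% and 7.59% in the untreated animals, or 14.4 ± 1.35% and 6.03 ± 1.5% (SD, n = 3 each), a difference of 8.40 percentage points. Il6+ fibroblasts made up 27.9%, 42.0% and 36.3% in the IL-17-inhibited animals, against 50.6%, 50.5% and 42.5% in the untreated animals, or 35.4 ± 7.13% and 47.8 ± 4.64% (SD, n = 3 each), a difference of -12.4 points. The groups did not overlap for either class, and the two-sided exact permutation p was 0.1 for each, the smallest that 3 against 3 animals can give, or 0.167 adjusted over the 5 classes. Lining fibroblasts had 14.4%, 6.66% and 7.27% in IL-17-inhibited and 6.13%, 6.63% and 5.67% in untreated animals (exact permutation p = 0.1, adjusted 0.167), with the groups apart by only 6.66% against 6.63%. The lining difference was 3.31 points, and 0.823 points without IL-17-inhibited animal 1. Mmp3+ fibroblasts differed by -0.60 points (p = 0.9, exact permutation) and Pi16+ fibroblasts by 1.30 points (p = 0.3), and the groups overlapped for both. Without 1 animal the Mmp3+ difference lay between -2.28 and 2.53 points and the Pi16+ difference between 0.799 and 2.01 points. In the healthy animals the Cd200+ share was 9.93% in the IL-17-inhibited and 8.81% in the untreated library, and the Il6+ share was 36.8% and 38.3%. Over all fibroblasts, the Cd200 gene had 51.8, 61.3 and 45.2 CPM in IL-17-inhibited and 20.3, 37.7 and 39.2 CPM in untreated animals (0.69 ± 0.30, adjusted p = 0.172) and Dkk3, which encodes a secreted protein of the Dickkopf family, 0.28 ± 0.13 (0.195).

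**Figure D4:**
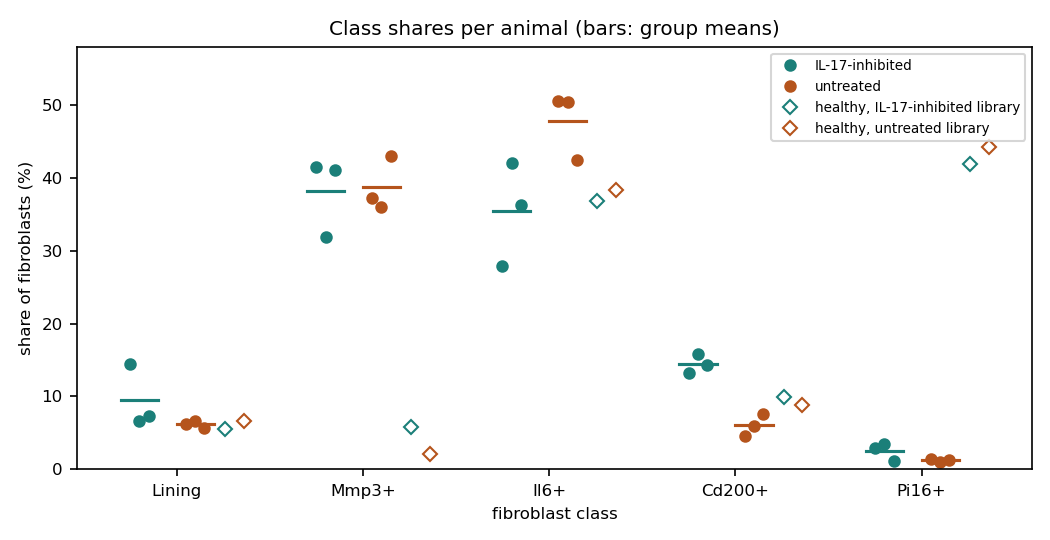
Share of each class among the annotated fibroblasts of an animal in percent (y axis), with 1 filled point per arthritic animal, IL-17-inhibited left of untreated, a bar at each group mean and open diamonds for the healthy animals. The Cd200+ shares of the IL-17-inhibited animals, from 13.2%, lie above those of the untreated animals, up to 7.59%, and the Il6+ shares lie below.

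With the sums made within each class, the Mmp3+ class gave the most calls and the Pi16+ class the fewest. In Mmp3+ fibroblasts 339 genes were higher (2.66% of those tested) and 478 lower (3.75%), in Il6+ fibroblasts 112 (0.979%) and 144 (1.26%), in Cd200+ fibroblasts 68 (0.734%) and 69 (0.745%), in lining fibroblasts 21 (0.208%) and 29 (0.287%), and in Pi16+ fibroblasts, with 9 animals in the fit, 7 (0.113%) and 12 (0.194%). The classes differed in depth, with 178034 UMIs in the shallowest Pi16+ animal and 18621672 in the deepest Mmp3+ animal. The lining sums of the arthritic animals held 1046720 to 3902351 UMIs and the Cd200+ sums 370400 to 3940598 UMIs. The part of depth in the counts of calls was not tested. Antigen-presentation genes rose in every class: 6 of 16 tested genes in lining, 14 of 19 in Mmp3+, 10 of 19 in Il6+, 10 of 19 in Cd200+ and 3 of 15 in Pi16+ fibroblasts, with none called lower and medians between 0.59 and 1.08. H2-K1 was called in all 5 classes, with changes from 0.96 in lining to 1.77 in Cd200+ fibroblasts. Its call was lost in lining fibroblasts when any 1 of the 6 animals was left out (adjusted p up to 0.177) and in Pi16+ fibroblasts without IL-17-inhibited animal 2 or untreated animals 1 or 3 (adjusted p up to 0.103), and was kept without any 1 animal in the other classes. The IL-17 targets fell in 7 of 30 cases in Mmp3+, where Csf2 rose (1.96 ± 0.42, adjusted p = 0.0138, lost without IL-17-inhibited animal 2 or untreated animals 1 or 3 (adjusted p up to 0.0725)), 1 of 29 in lining, 2 of 28 in Cd200+, 2 of 23 in Pi16+ and 0 of 29 in Il6+ fibroblasts.

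**Figure D5:**
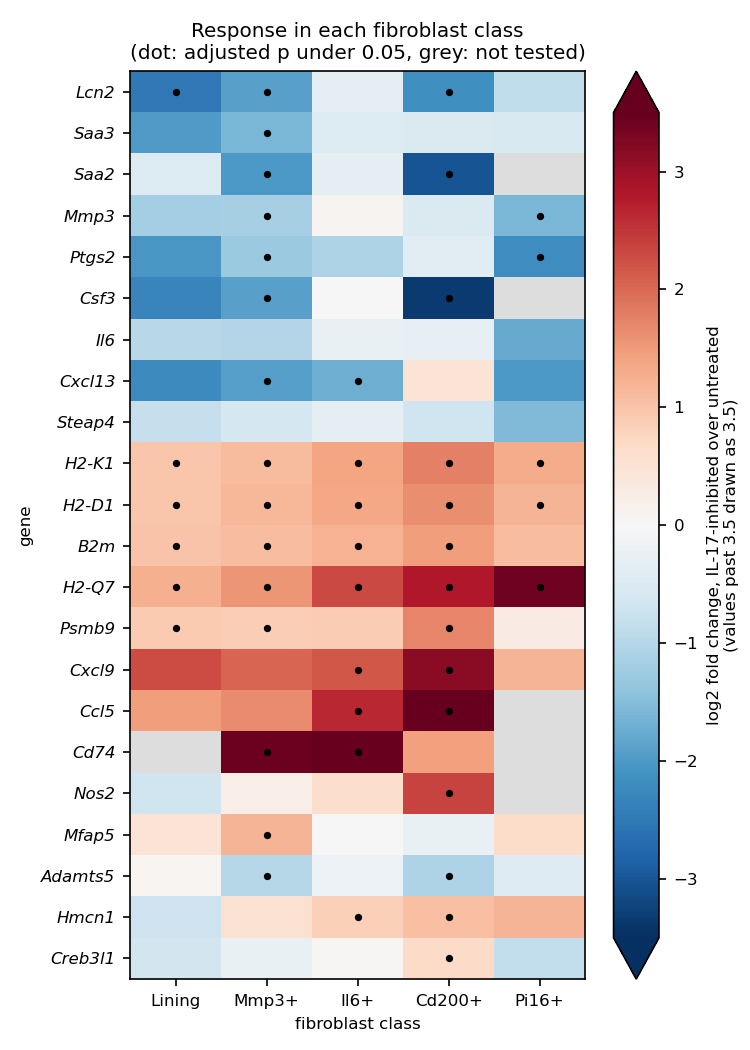
Log2 fold change of IL-17-inhibited over untreated animals (colour) for 22 genes (y axis) in each fibroblast class (x axis), with a dot where the adjusted p was under 0.05 and grey where the gene was not tested; values past 3.5 are drawn as 3.5. H2-K1 is positive with a dot in every class, while Lcn2 is marked in lining, Mmp3+ and Cd200+ fibroblasts and not in the Il6+ class.

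Of the IL-17 targets, Lcn2 had the lowest p for a response that differs between classes. In Mmp3+ fibroblasts it had 2005, 1369 and 3045 CPM in IL-17-inhibited animals and 8916, 8136 and 6708 CPM in untreated animals (-1.89 ± 0.31, adjusted p = 0.0047). In lining fibroblasts the values were 1416, 898 and 2428 CPM in IL-17-inhibited and 7582, 11038 and 8388 CPM in untreated animals (-2.51 ± 0.38, adjusted p = 0.0261), and in Cd200+ fibroblasts the change was -2.15 ± 0.42 (0.0217). The Mmp3+ call passed without any 1 animal, the lining call was lost without IL-17-inhibited animals 1 or 2 or untreated animals 2 or 3 (adjusted p up to 0.12) and the Cd200+ call without IL-17-inhibited animals 1, 2 or 3 or untreated animals 1 or 2 (adjusted p up to 0.0989). The healthy lining fibroblasts, 23 and 49 cells, had 28 and 172 CPM in the IL-17-inhibited and the untreated library, and with a library term the lining value was 0.11. In Il6+ fibroblasts it had 1533, 1494 and 2109 CPM in IL-17-inhibited and 2159, 2094 and 2211 CPM in untreated animals (-0.33 ± 0.25, adjusted p = 0.524). The test of the treatment by class terms, over the 4 classes with at least 25 cells in each of the 6 animals, gave an adjusted p of 0.00159. The fall was smaller in Il6+ fibroblasts, whose log2 fold change lay 1.85 above the mean of the other classes (adjusted p = 0.00104). The treatment by class terms passed without any 1 animal. A library difference of equal size in all classes cancels in this test, but one that differs between classes does not: the muscle genes Mylpf and Mb and the desmin gene Des, of muscle and mural cells, passed it as well (adjusted p = 0.0424, 0.0434 and 0.0457), with Mb in Cd200+ fibroblasts below the mean of the other classes by a log2 difference of -2.59. Mmp13, Saa3 and Ptgs2 also passed it (adjusted p = 0.0359, 0.0424 and 0.0434).

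Other acute-phase and protease genes were called within the Mmp3+ class. Saa3 fell by 1.60 there (adjusted p = 0.0363) and had -1.99 ± 0.43 in lining (0.0601) and -0.47 ± 0.30 in Il6+ fibroblasts (0.458). Its Mmp3+ call was lost when any 1 of the 6 animals was left out (adjusted p up to 0.152). The Mmp3 gene had 9453, 9344 and 15288 CPM in IL-17-inhibited and 26797, 24511 and 24292 CPM in untreated animals in the class named for it (-1.15 ± 0.23, adjusted p = 0.01). It was lower in every IL-17-inhibited animal there, lost its call without IL-17-inhibited animal 2 (adjusted p up to 0.063), and had 0.09 ± 0.25 in Il6+ fibroblasts (adjusted p = 0.889). Csf3, which did not pass over all fibroblasts, fell by 1.89 in the Mmp3+ class, to 42.5, 27.2 and 21 CPM in IL-17-inhibited animals, against 84.6, 162 and 85 CPM in untreated animals (adjusted p = 0.00512). Its fall of 3.34 in Cd200+ fibroblasts (adjusted p = 0.0116) rested on untreated animal 2 with 148 CPM beside 10.8 and 21.7 CPM in the others, and was lost without IL-17-inhibited animals 2 or 3 or untreated animal 2 (adjusted p up to 0.142). Cxcl13 was lower in Mmp3+ (-1.93 ± 0.33) and Il6+ fibroblasts (-1.70 ± 0.34; adjusted p = 0.00571 and 0.0232) and had 0.49 ± 0.61 in Cd200+ fibroblasts (adjusted p = 0.763). In Mmp3+ fibroblasts, of which the healthy animals had 24 and 16 cells, a library term gave Cxcl13 1.26. The Il6+ call for Cxcl13 was lost without IL-17-inhibited animals 1 or 2 or untreated animal 2 (adjusted p up to 0.108).

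Cd200+ fibroblasts showed rises of T cell attractants and of inducible nitric oxide synthase. Untreated animal 1 had 36 Cd200+ cells with 370400 UMIs, so its low values here rest on few UMIs. Over all fibroblasts a library term turned the sign of Ccl5. No healthy Cd200+ levels are given for these genes, and their calls do not separate treatment from library. Ccl5 had 473, 329 and 357 CPM in the IL-17-inhibited animals, against 5.41, 16.7 and 17.8 CPM in the untreated animals (4.62 ± 0.61, adjusted p = 0.000542). Cxcl9 had 1779, 2598 and 2319 CPM in IL-17-inhibited animals and 100.2, 287 and 336 CPM in untreated animals (3.15 ± 0.53, adjusted p = 0.0111). For both genes the lowest IL-17-inhibited animal was several times above the highest untreated animal, and Ccl5 passed without any 1 animal while Cxcl9 lost its call without untreated animal 2 (adjusted p up to 0.0573). Nos2, which makes nitric oxide and is induced by interferon-gamma, had 258, 354 and 214 CPM in IL-17-inhibited and 13.5, 53.3 and 71.1 CPM in untreated animals (2.38 ± 0.51, adjusted p = 0.0279), and the Cd200+ response exceeded the mean of the other classes by 2.44 (adjusted p = 0.00149; treatment by class terms 0.00157). The call within Cd200+ fibroblasts was lost without IL-17-inhibited animals 2 or 3 or untreated animals 1, 2 or 3 (adjusted p up to 0.115), whereas the terms passed without any 1 animal. In lining fibroblasts Nos2 had -0.69 ± 0.36 (adjusted p = 0.456). Over the classes, the response of Cd200+ fibroblasts differed from the mean of the others in 45 genes (0.375% of 11996), that of lining fibroblasts in 73 (0.609%), of Il6+ fibroblasts in 9 (0.075%) and of Mmp3+ fibroblasts in 3 (0.025%). The treatment by class terms passed in 125 genes (1.04%).

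The class tests also named genes outside the inflammatory lists, and the treatment by class terms of Mfap5, Adamts5, Hmcn1 and Mylk passed without any 1 animal. Mfap5, a microfibril protein, rose in Mmp3+ fibroblasts, with 631, 541 and 473 CPM in IL-17-inhibited and 269.8, 204 and 244 CPM in untreated animals (1.20 ± 0.20, adjusted p = 0.0047), and had 0.01 in Il6+ fibroblasts (terms 0.00157). Adamts5 fell by 1.0 in Mmp3+ and 1.07 in Cd200+ fibroblasts and had 0.07 in lining and -0.21 in Il6+ fibroblasts (terms 0.00255). Within the classes its calls were lost when any 1 of the 6 animals was left out (adjusted p up to 0.185) and, in Cd200+ fibroblasts, without IL-17-inhibited animals 2 or 3 or untreated animals 1, 2 or 3 (adjusted p up to 0.221). Hmcn1, a basement membrane protein gene, rose by 1.06 ± 0.22 in Cd200+ and 0.83 ± 0.18 in Il6+ fibroblasts and had -0.73 in lining fibroblasts (terms 0.00197). Its Cd200+ call was lost without IL-17-inhibited animals 1, 2 or 3 or untreated animal 2 (adjusted p up to 0.147) and its Il6+ call without IL-17-inhibited animals 1 or 2 or untreated animals 1, 2 or 3 (adjusted p up to 0.156). Lining fibroblasts differed from the rest for Mylk, myosin light chain kinase (-1.48 ± 0.27, adjusted p = 0.034; difference from the others -1.43, adjusted p = 0.0175), a lining call lost without IL-17-inhibited animals 1, 2 or 3 or untreated animals 1 or 3 (adjusted p up to 0.154). Timp3, a metalloproteinase inhibitor, rose there to 66, 131 and 95 CPM in IL-17-inhibited animals, against 30, 23.2 and 19 CPM in untreated animals (2.06 ± 0.36, adjusted p = 0.034), and Tnfsf11 fell by 1.68 (adjusted p = 0.0453). Timp3 lost its call without IL-17-inhibited animal 2 or untreated animals 2 or 3 (adjusted p up to 0.142) and Tnfsf11 without IL-17-inhibited animals 1 or 2 or untreated animals 1, 2 or 3 (adjusted p up to 0.223). In Mmp3+ fibroblasts Flt1, a VEGF receptor, rose by 2.34 ± 0.40 and Fpr2, a formyl peptide receptor, fell by 2.17 (adjusted p = 0.00481 and 0.00396). Cd74 rose in Mmp3+ and Il6+ fibroblasts (3.43 ± 0.45 and 3.62 ± 0.57; adjusted p = 0.00142 and 0.00456), and Flt1, Fpr2, Mfap5 and Cd74 passed within these classes without any 1 animal. In Pi16+ fibroblasts the calls included Mmp3 (-1.60 ± 0.27) and Ptgs2 (-2.17 ± 0.39), with 11 to 67 cells per arthritic animal, and Mmp3 lost its call there without IL-17-inhibited animals 1 or 2 or untreated animals 1, 2 or 3 (adjusted p up to 0.118) and Ptgs2 without IL-17-inhibited animals 1 or 2 or untreated animals 1, 2 or 3 (adjusted p up to 0.0951). Genes of muscle fibres were among the 5 largest falls in lining, Mmp3+, Il6+ and Cd200+ fibroblasts.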

How the data were processed

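Droplet single-cell RNA libraries with hashtag antibodies were deposited as UMI counts per gene and cell, with the authors' table of annotated cells. Per the file headers the matrices came from Cell Ranger 6.0.0, per the submitters' processing notes from 6.0.6, aligned to mm10. The deposited table also gives, computed by the authors, a mitochondrial fraction per cell and a stress score and hashtag margin score whose formulas are not given in the sources used here. Cells, classes and hashtags were taken from the authors' table; no doublet caller was run, and counts were summed per animal and per animal and class. The animal is the replicate, and its numbers do not pair animals across libraries.

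edgeR 4.0.16 (quasi-likelihood, TMM, filterByExpr) was fitted to 12 animals of the 3 unsorted libraries (3 TNF-inhibited and 3 healthy animals included), with group as the only term. Genes were called at a Benjamini-Hochberg adjusted p under 0.05. Class fits needed 10 cells per animal. The treatment by class test kept the animal as a block, with 25 cells per animal and class. Class shares had a two-sided exact permutation test. The fits were run on counts simulated with the fitted spread, in which 200 genes above a minimum level were changed 2-fold or 3-fold. All 200 were recovered. At 2-fold and 3-fold, 13 and 2 unchanged genes were called over all fibroblasts and 14 and 11 between classes. This does not show that every 2-fold change in the real animals would pass.

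Named genes were, in each direction, the 12 with the largest called changes that reached 20 CPM and did not overlap, up to 3 of each list, 5 of each class, the 10 with the lowest p between classes and every IL-17 list member. Other list members were named after their values were seen. A gene that the rule names is not reported here. The members and lists were chosen with earlier results of these data known. Sex and hashtag-margin alternatives were added after seeing the data. The other alternatives were the 6 arthritic animals alone, a library term, a replicate block, DESeq2 1.42.0, RLE scaling, no low-count filter, an equal class mix, hashtags called after a centred log ratio, thinned depth and leaving out each animal.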

Additional observations from a re-analysis of the deposited data

Results flagged for a closer look

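The genes below are those whose response to IL-17 inhibition differed most between lining, Mmp3+, Il6+ and Cd200+ fibroblasts, by the adjusted p of edgeR's quasi-likelihood test of the treatment by class terms over 3 against 3 animals. Nos2 (0.00157) had log2 fold changes of -0.69 in lining, 0.24 in Mmp3+, 0.61 in Il6+ and 2.38 in Cd200+ fibroblasts. Its log2 difference from the mean of the other classes was 2.44 in Cd200+ and -1.81 in lining fibroblasts (adjusted p = 0.00149 and 0.00331, edgeR quasi-likelihood test of each class). Mme, a membrane peptidase gene (0.00157), had log2 fold changes of -0.85 in lining, -0.47 in Mmp3+, 0.39 in Il6+ and 0.01 in Cd200+ fibroblasts. Mfap5, a microfibril gene (0.00157), had log2 fold changes of 0.48 in lining, 1.20 in Mmp3+, 0.01 in Il6+ and -0.25 in Cd200+ fibroblasts. Antxr1, a collagen-binding receptor gene (0.00157), had log2 fold changes of -0.75 in lining, -0.35 in Mmp3+, 0.18 in Il6+ and 0.24 in Cd200+ fibroblasts. Lcn2 (0.00159) had log2 fold changes of -2.51 in lining, -1.89 in Mmp3+, -0.33 in Il6+ and -2.15 in Cd200+ fibroblasts. Hmcn1 (0.00197) had log2 fold changes of -0.73 in lining, 0.54 in Mmp3+, 0.83 in Il6+ and 1.06 in Cd200+ fibroblasts. Mylk (0.00219) had log2 fold changes of -1.48 in lining, -0.83 in Mmp3+, 0.22 in Il6+ and 0.54 in Cd200+ fibroblasts. Creb3l1, a transcription factor gene of matrix-secreting cells (0.00255), had log2 fold changes of -0.64 in lining, -0.26 in Mmp3+, 0.03 in Il6+ and 0.67 in Cd200+ fibroblasts. Adamts5 (0.00255) had log2 fold changes of 0.07 in lining, -1.0 in Mmp3+, -0.21 in Il6+ and -1.07 in Cd200+ fibroblasts. Fmo1, a flavin monooxygenase gene (0.0038), had log2 fold changes of -2.61 in lining, -1.34 in Mmp3+, -0.37 in Il6+ and -0.57 in Cd200+ fibroblasts. All 10 passed the test of the treatment by class terms without any 1 animal.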

How the results depend on the processing

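The count of 1212 genes over all fibroblasts was 2001 with the 6 arthritic animals only, 1989 with a sex term added after seeing the data, 1671 with DESeq2, 1466 with a replicate block, 542 after thinning to equal depth, 0 with a library term, and 326 to 754 without 1 animal, lowest without untreated animal 2. Sharing a replicate number did not pair animals (correlations of deviations -0.08, -0.03 and -0.01), so the block is a hint only. For lining, Mmp3+, Il6+, Cd200+ and Pi16+ fibroblasts the library term gave 0, 4, 0, 0 and 0 genes, the replicate block 267, 1541, 412, 310 and 2, and DESeq2 126, 1534, 407, 207 and 132. The 6 arthritic animals only gave 181, 2011, 346 and 4 in lining, Mmp3+, Cd200+ and Pi16+ fibroblasts. Without 1 animal the counts were 2 to 43, 226 to 573, 58 to 143, 30 to 106 and 4 to 16. Genes with a response that differed between classes numbered 59 with classes of at least 10 cells, 968 without a low-count filter, 284 with the DESeq2 likelihood ratio test and 35 to 153 without 1 animal. The changed members of the IL-17 target list were 5 to 9 and of antigen presentation 9 to 16 without 1 animal, and 0 in these lists and the acute-phase list with a library term. The Mmp3+ share difference was -2.28 to 2.53 points and the Il4i1 value -0.19 to 0.50 without 1 animal, and Il17rd had -4.4e-05 with an equal class mix.

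With a library term the sign turned for Ccl5 (-0.52), H2-Q7 (-0.17), Ckm (0.22), Atp2a1 (0.38), Myl1 (0.073), Arid5a (0.26), Csf2 (-1.54), Csf3 (0.92), Lif (0.011), Ccl20 (-0.21), Mmp9 (-0.50), Saa1 (0.30), Pi16 (0.0070), Orm1 (0.39), Il18bp (-0.16), Nqo1 (-0.18), Hspb1 (-0.039), Antxr1 (0.040), Mylk (0.0036) and the keratinocyte median (-0.041). Within classes it turned for Ckm and Lcn2 in lining (0.082 and 0.11), AA467197 and Cxcl13 in Mmp3+ (-1.57 and 1.26), Atp2a1, Ckm and Tnni2 in Il6+ (0.55, 0.55 and 0.057) and H2-Q7 in Cd200+ fibroblasts (-1.60). The causes were not tested, and this term rests on 1 healthy animal per library. Of 83 called genes that the text's rule names, 37 passed without any 1 animal. Thinned to equal depth, the calls over all fibroblasts were fewer, and the part of depth in the class counts was not tested.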

Other observations

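Other gene groups of the fibroblasts differed in single members. Of 19 myofibroblast and TGF-beta response genes 4 rose and 1 fell (median 0.02). Acta2, smooth muscle actin, had 39.3, 44.4 and 48.1 CPM in IL-17-inhibited and 30.6, 20.2 and 25.7 CPM in untreated animals (0.80 ± 0.19, adjusted p = 0.0227 by edgeR's quasi-likelihood test), Itga11, a collagen-binding integrin chain, rose by 0.94 ± 0.21 (0.0197) and Tgfb1 by 0.44 ± 0.095 (0.0158). Of 12 genes of the IL-6 family and its receptors 2 fell and none rose (median -0.20). Besides Il6 this was Il6ra, the receptor chain that binds IL-6, with 26.4, 31.6 and 28 CPM in IL-17-inhibited and 39.1, 51.9 and 43.4 CPM in untreated animals (-0.65 ± 0.14, 0.0172). Of 9 genes of the IL-1 and IL-33 axis, Il1r1 fell by 0.63 (0.00476) and the decoy receptor gene Il1r2 also fell (0.0212), and Il18bp, which encodes an inhibitor of IL-18, rose by 0.68 ± 0.18 (0.0344). Of 21 Wnt genes 2 rose and 1 fell, the antagonist gene Sfrp1, with 55.8, 75 and 100.3 CPM in IL-17-inhibited and 121, 145 and 131 CPM in untreated animals (-0.78 ± 0.16, 0.0125). Of 10 insulin-like growth factor genes Igfbp5 rose by 0.55 ± 0.13 (0.0209).

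Oxidant and antioxidant genes rose in 2 of 19 cases, Gpx1 by 0.64 ± 0.10 and Nqo1 by 0.96 ± 0.24 (0.0044 and 0.0282). Both had the same sign between the healthy animals. The median of these 19 genes was 0.09 in arthritic and 0.21 in healthy animals, and -0.07 with a library term. Of 24 immediate early and heat shock genes, Hspb1 rose by 1.21 ± 0.33 and Fosb, Nr4a1 and Klf4 fell by 0.74, 0.57 and 0.39 (0.0427, 0.00825, 0.0308 and 0.049), genes that also respond to tissue digestion. All 4 had the same sign between the healthy animals, whose median ratio over this list was -0.30, against -0.12 in the arthritic animals, and a library term gave a median of 0.05. Il1r1, Gpx1 and Fosb passed in each fit that left out 1 animal, Sfrp1 lost its call without untreated animal 2 (adjusted p up to 0.0581), Il6ra without IL-17-inhibited animal 3 or untreated animal 2 (adjusted p up to 0.0837), and Acta2 without IL-17-inhibited animals 2 or 3 or untreated animals 2 or 3 (adjusted p up to 0.106). Itga11, Tgfb1, Il1r2, Il18bp, Igfbp5, Nqo1, Nr4a1, Hspb1 and Klf4 each lost theirs when any of 2 or more single animals was left out, Hspb1 without IL-17-inhibited animals 2 or 3 or untreated animals 1, 2 or 3 (adjusted p up to 0.149) and Klf4 when any 1 of the 6 animals was left out (adjusted p up to 0.181) among them. Other lists had few or no calls. Of 22 cell cycle genes 21 had a positive value and none passed (median 0.61), of 14 sterol synthesis genes 13 had a positive value and none passed (median 0.22), and of 12 lining identity genes 10 had a positive value and 1, Clic5, passed (median 0.58). Of 10 Notch genes none passed (median 0.25), and of 25 glycolysis and hypoxia genes 1 rose (median 0.14). Median ratios between the healthy animals over members with at least 20 UMIs were -0.11, -0.58, -0.54, -0.20 and 0.11 for these lists.

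The hashtag antibodies bind CD45 and the class I light chain per the labels, and the median hashtag UMIs per fibroblast were 1414.5, 1721 and 1753 in IL-17-inhibited and 552, 813 and 754 in untreated animals. They were 618 and 241 in the healthy animals of the IL-17-inhibited and the untreated library. Cells annotated as other than fibroblasts made up 18.7%, 13.5% and 14.6% of annotated cells in IL-17-inhibited and 10.6%, 7.91% and 9.55% in untreated animals, and 19.2% and 11.8% in the healthy animals of the IL-17-inhibited and the untreated library. Among fibroblasts, the 10 endothelial markers summed to 7.09 to 10.8 CPM in IL-17-inhibited and 11.0 to 13.6 CPM in untreated animals, and none passed.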
